A study of Mus musculus with 8 samples.

Results

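The Wnt pathway genes described here are 57 named members: 11 Wnt ligand genes, 9 Frizzled receptors and their co-receptors, secreted inhibitors that include sclerostin (Sost) and the Dickkopf (Dkk) genes, cytoplasmic relay proteins and the TCF/LEF nuclear factors. Each was found by its symbol as 1 of the 55359 gene identifiers in the deposited count table. They were measured by RNA-seq of poly(A)-enriched RNA in wild type MLO-Y4 cells, a mouse line with osteocyte features, grown on collagen-coated 35-mm dishes. Libraries C5 to C8 (n = 4) came from non-irradiated cells. Libraries L5 to L8 (n = 4) came from cells given 1 min under a pulsed Er:YAG laser at 2940 nm, with a fluence of 6 J/cm2 and the emitter 25 cm above the bottom of the dish. Cells had been seeded 72 h before irradiation and RNA was taken 6 h after it. Medium was removed before irradiation, and the labels do not say whether this was also done for the control dishes. MLO-Y4 is a clonal line from mice that carried an immortalizing T antigen under the osteocalcin promoter, so each library comes from the same clone.

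Wnt proteins are lipid-modified signals that bind Frizzled receptors on the cell surface. When LRP5 or LRP6 joins the complex, beta-catenin escapes its destruction complex, enters the nucleus and activates genes together with TCF/LEF factors. Other branches work through ROR2, RYK, planar polarity proteins or calcium without beta-catenin. In bone, osteocytes are known for restraining Wnt signalling in bone-forming cells by secreting sclerostin and DKK1, which block LRP5 and LRP6.

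Library totals ran from 43786209 to 51734166 counts. The osteocyte genes Sost, Mepe and Fgf23 had 0 counts in each of the 8 libraries, whereas Pdpn, Gja1, Cd44 and Phex were detected. Dmp1, another osteocyte gene, had only 21 counts over the non-irradiated and 61 over the irradiated libraries. Ptprc, Adgre1, Itgam, Cdh5, Kdr, Epcam and Cdh1, markers of blood, endothelial and epithelial cells, had 0 counts in each library. Csf1r, a receptor of the macrophage lineage, was detected in all 8 libraries and was higher in irradiated cells (mean of 26.2 CPM, against 14.2 CPM without irradiation, edgeR adjusted p = 1.06e-07). Ctsk, an osteoclast protease, was lower (mean of 57.1 CPM, against 65.7 CPM, edgeR adjusted p = 0.0188), and Cd68 gave 3.52 CPM, against 4.44 CPM (edgeR adjusted p = 0.193). Summed over the 8 osteocyte markers, levels were 1530 to 1712 CPM in non-irradiated and 1901 to 1962 CPM in irradiated libraries. Cd44, which is not confined to osteocytes, was the largest part (means of 852 and 991.2 CPM). The 6 osteoblast markers summed to 1103 to 1235 CPM in non-irradiated and 1176 to 1272 CPM in irradiated libraries. Col1a1 was by far the largest part (means of 1112 and 1140 CPM). Ibsp of this list had 0 counts in each library, and Bglap and Sp7 averaged 0.38 and 1.45 CPM in non-irradiated cells. Alpl rose from a mean of 33.2 to 40.8 CPM (edgeR adjusted p = 0.0037), and Runx2 rose too (edgeR adjusted p = 0.005). Sp7, Bglap and Col1a1 gave edgeR adjusted p = 0.0512, 0.868 and 0.581. The summed level of the 8 macrophage and osteoclast markers was 77.8 to 89.9 CPM in non-irradiated and 81.8 to 90.7 CPM in irradiated libraries, and 5 of these 8 were at 0. Endothelial and epithelial lists stayed at or under 0.617 CPM in sum. Adipocyte, chondrocyte and muscle lists reached at most 0.712, 5.08 and 4.73 CPM in sum. The part of these marker levels in the results below was not tested. The labels do not say that replicates were separate cultures, so p-values measure the spread between these libraries, which may be only technical. In bulk RNA, fewer cells of a type and less RNA per cell cannot be told apart.

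Of the 57 members 35 passed the filter on low counts and were tested, and 22 did not. Tcf7, Fzd5 and Dvl1 rose in irradiated cells, and Fzd2 and Wnt9a fell. The other 30 tested members did not pass the threshold of an adjusted p of 0.05 (edgeR quasi-likelihood test, Benjamini-Hochberg over all genes). Thus 5 of 35 (14.3%) were called, and among all 15164 tested genes 15.0% were called, so the share among Wnt members was that of the background. By direction, 3 were higher and 2 lower, against 8.22% and 6.75% of all tested genes. Scaling by library totals alone turned the split over all genes from 1247 higher and 1023 lower to 1050 and 1345, and that of members from 3 and 2 to 3 and 4. The members' median log2 fold change was -0.05, beside -0.01 over all tested genes. The groups' values did not overlap for 9 of 35 members (25.7%), against 18.5% of all tested genes. An unadjusted p under 0.05 was reached by 12 members (34.3%, against 27.4% of all tested genes).

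**Figure D1:**
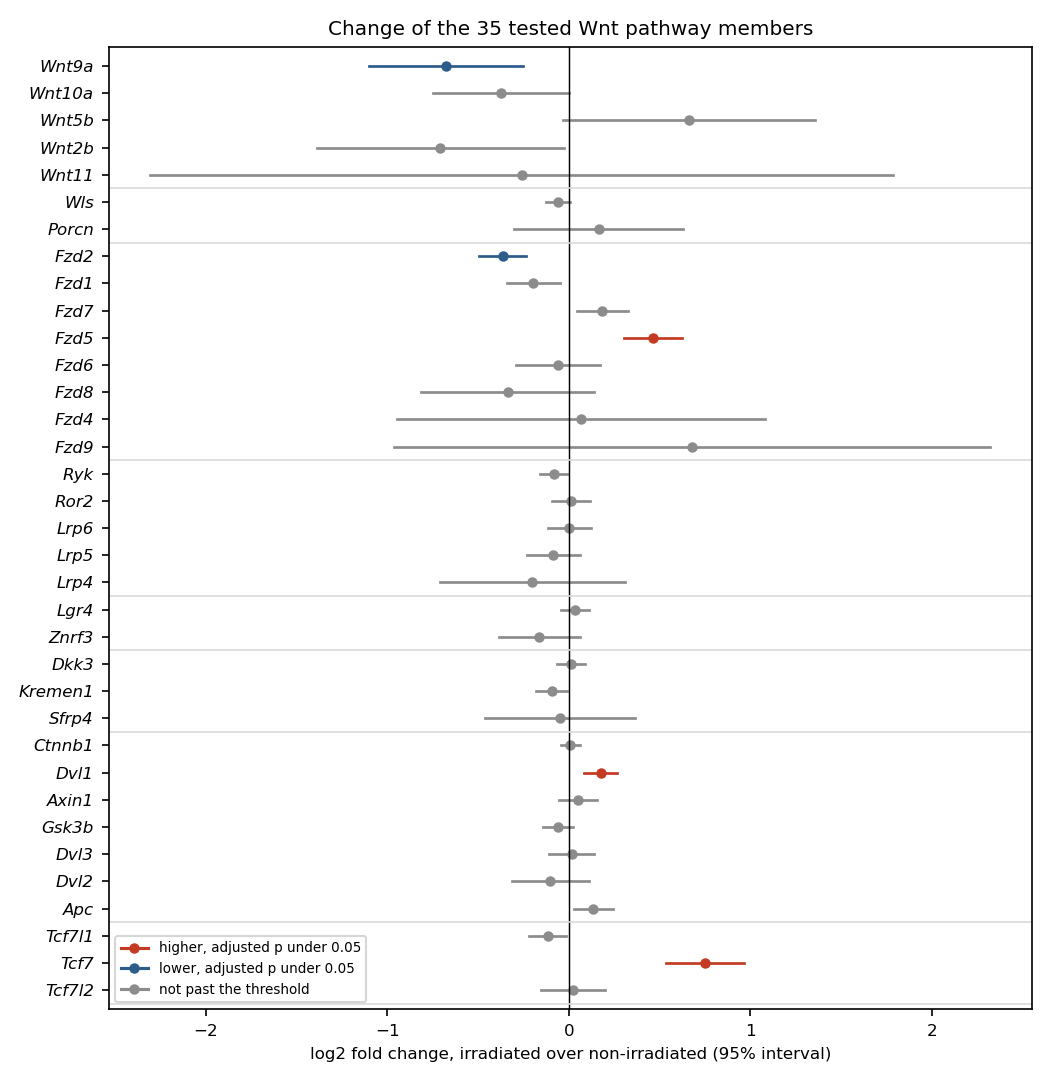
Log2 fold change of irradiated over non-irradiated cells with its 95% interval for the 35 tested members, grouped from top to bottom as ligands, secretion, Frizzled receptors, co-receptors, receptor turnover, inhibitors, relay proteins and nuclear factors. Red and blue mark the 3 members that were higher and the 2 that were lower at an adjusted p under 0.05, and the widest intervals belong to weakly expressed genes such as Wnt11 and Fzd9.

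Levels of different genes were compared as CPM, counts scaled to a common library total, per kb of exon, since a longer transcript yields more reads. Ctnnb1, which encodes beta-catenin, had the highest level among members at 121.9 ± 0.679 CPM per kb (SD, n = 4) in non-irradiated cells, above 97.6% of tested genes. Dkk3 followed at 60.2 ± 3.08, Ryk at 42.7 ± 0.837, Lgr4 at 36.4 ± 1.56 and Wls at 28.4 ± 0.296 CPM per kb. The most abundant ligand, Wnt9a, reached 1.9 ± 0.241 CPM per kb, above 31.5% of tested genes. Receptor genes spread widely, from Ryk above 91.6% of tested genes to Fzd9 above 2.14%.

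**Figure D2:**
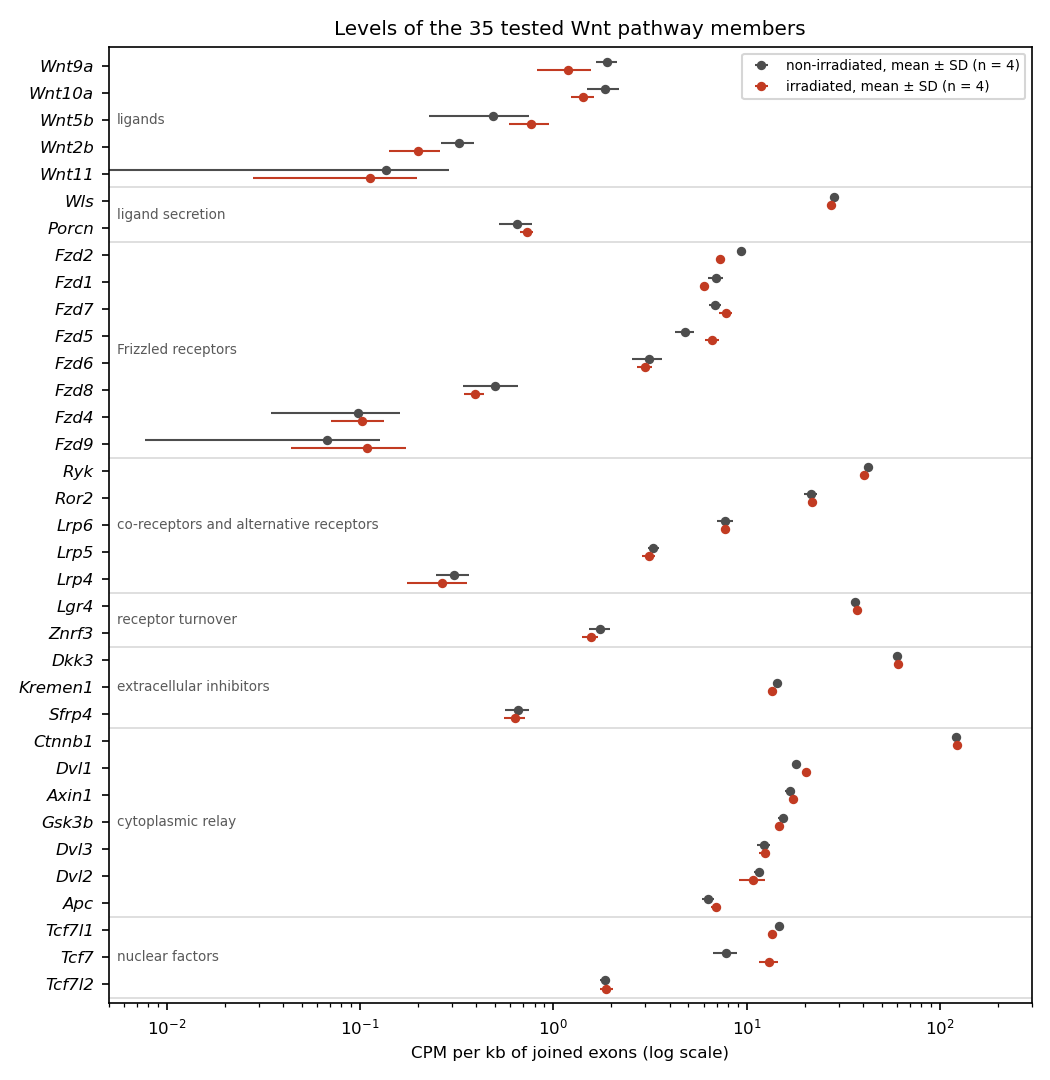
Mean level in CPM per kb of joined exons, on a log axis, of the 35 tested members in non-irradiated (grey) and irradiated (red) cells, with SD over 4 libraries. The lower bar is cut near 0 where the SD exceeds the mean. Ctnnb1 stands highest near 122 CPM per kb in both groups, and the ligands lie under 2 CPM per kb.

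Among ligands, 5 of 11 were tested, 1 fell, and the other 4 did not pass. Wnt9a, a ligand with a role in joint formation, was at 6.76, 5.14, 6.68 and 6.78 CPM in C5 to C8 and at 5.1, 4.46, 4.09 and 2.23 CPM in L5 to L8. The groups did not overlap, but the highest irradiated library (L5) lay just under the lowest non-irradiated one (C6), and L8 was the lowest of the 8. Wnt9a averaged 6.34 ± 0.803 CPM without and 3.97 ± 1.23 CPM with irradiation. Its log2 fold change was -0.68 with an SE of 0.203 (edgeR adjusted p = 0.0297). This call was lost without C5, C7, C8, L7 or L8 (edgeR adjusted p up to 0.0833), and the log2 fold change without L8 was -0.48.

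Wnt10a, a ligand of tooth and bone development, gave 3.6 to 5.59 CPM in non-irradiated and 2.97 to 4.04 CPM in irradiated libraries, overlapping ranges (log2 fold change -0.37, edgeR adjusted p = 0.186). Wnt2b, a beta-catenin-activating ligand, gave 1.37 ± 0.268 and 0.841 ± 0.249 CPM with no overlap (log2 fold change -0.71, edgeR adjusted p = 0.164). Wnt5b, a ligand of the beta-catenin-independent branch, gave 1.29 ± 0.687 and 2.05 ± 0.478 CPM (log2 fold change 0.66, edgeR adjusted p = 0.205). These ligands did not pass the test, and their counts were low and their intervals wide. For Wnt5b the 95% interval of the fold ran from 0.98 to 2.56, and without C5 its edgeR adjusted p was 0.0429 (log2 fold change 1.06). Wnt11 had 0 to 1.44 CPM in non-irradiated and 0.251 to 0.989 CPM in irradiated libraries (log2 fold change -0.26, edgeR adjusted p = 0.901).

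The other 6 ligands were below the filter. Wnt3a and Wnt5a had 0 counts in each library. A count of 0 allows up to 0.0693 CPM (3 counts in the smallest library), or 0.277 CPM if a fragment adds about 4 counts, as the low values of this table look. Such limits cover counting error only. Wnt4 had 9 and 8 counts in L5 and L6 and 0 in the others. Wnt7b had 15 counts in C5 to C8 together and 0 in L5 to L8, Wnt10b had 31 and 18, and Wnt16 had 4 and 7. These are a few fragments per library. With a filter of 1 count the 11 members with few counts could be fitted, and none passed (lowest edgeR adjusted p = 0.179). Of these, 3 (Wnt4, Wnt7b and Rnf43) had an unadjusted p under 0.05, on 17, 15 and 12 counts that lay in 1 group only. In the main fit 27.4% of all tested genes had an unadjusted p under 0.05, and the share with the filter of 1 count is not given here. The 3 are therefore not read as changes. Summed over the 11 ligands, the level was 4.06 to 5.53 CPM per kb in non-irradiated and 3.5 to 4.19 in irradiated libraries, with overlap. Genes for ligand export did not pass the test. Wls, which carries Wnt proteins to the cell surface, gave 249.6 ± 2.61 and 239.8 ± 7.35 CPM without overlap (log2 fold change -0.06, edgeR adjusted p = 0.249). Porcn, the acyltransferase that attaches the lipid, gave 1.96 ± 0.38 and 2.19 ± 0.169 CPM (edgeR adjusted p = 0.707).

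Frizzled receptors went both ways: of 8 tested, Fzd5 rose, Fzd2 fell and 6 did not pass the test. Fzd5 was at 33.5, 38, 32.4 and 29 CPM in C5 to C8 and at 48.9, 42, 49.1 and 43.3 CPM in L5 to L8. Every irradiated library lay above every non-irradiated one. Means were 33.2 ± 3.74 and 45.8 ± 3.71 CPM, a 1.38-fold rise. On the log2 scale it was 0.46 with an SE of 0.076 (edgeR adjusted p = 0.000292). Fzd2, which can also serve WNT5A-type signalling, was at 35.6, 32.3, 36.5 and 33.5 CPM in C5 to C8 and at 27, 27.4, 26 and 26.5 CPM in L5 to L8. The irradiated libraries lay close together and all below the non-irradiated ones. Means were 34.5 ± 1.91 and 26.8 ± 0.603 CPM, 1.29-fold lower after irradiation. On the log2 scale it was -0.37 with an SE of 0.061 (edgeR adjusted p = 0.000269). The call of Fzd5 and that of Fzd2 held under each of the 16 alternatives tried.

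Fzd1 and Fzd7, receptors close in sequence to Fzd2, lay on opposite sides of 0 and did not pass. Fzd1 gave 29.1 ± 2.52 and 25.4 ± 1.05 CPM without overlap (log2 fold change -0.20, edgeR adjusted p = 0.0667), and it passed when library totals alone set the scale (edgeR adjusted p = 0.0377). Fzd7 gave 31.2 ± 2.08 and 35.4 ± 2.71 CPM with overlap (log2 fold change 0.18, edgeR adjusted p = 0.0739), and it passed without C6 (edgeR adjusted p = 0.0278). Fzd6 gave 15 ± 2.67 and 14.4 ± 1.3 CPM (edgeR adjusted p = 0.804). Fzd8, Fzd4 and Fzd9 were at 2.97, 0.655 and 0.155 CPM in non-irradiated cells, with edgeR adjusted p = 0.371, 0.954 and 0.648. Fzd3 had 0 counts in each library.

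Set on the per kb scale, the Frizzled sums of both groups overlapped while the parts of Fzd5 and Fzd2 in them did not. The sum over the 9 genes was 31.8 ± 1.21 CPM per kb in non-irradiated and 31.4 ± 0.325 in irradiated cells, with overlapping ranges. The share of Fzd5 in that sum was 13.8% to 16.6% in non-irradiated and 19.3% to 22.8% in irradiated libraries. The share of Fzd2 was 26.6% to 31.7% and 22.8% to 23.8%. In non-irradiated cells Fzd2 exceeded Fzd5 by a factor of 1.61 to 2.18 per kb, and in irradiated cells by 1 to 1.23. These shares restate the changes of Fzd5 and Fzd2 and were not tested.

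**Figure D3:**
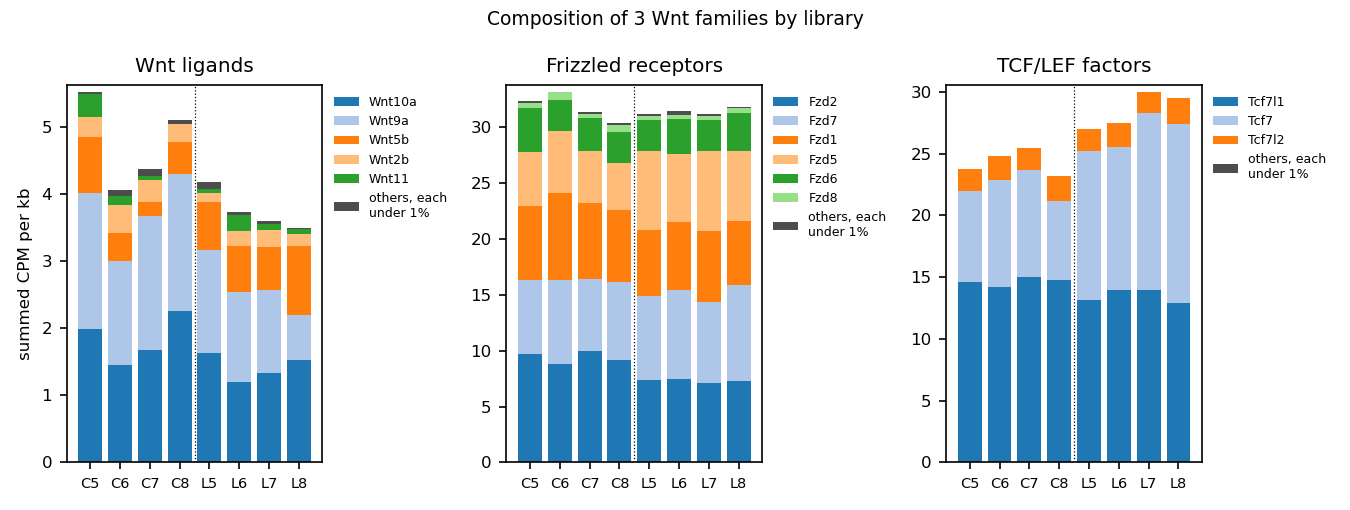
Summed level in CPM per kb of the Wnt ligands, Frizzled receptors and TCF/LEF factors in each library, with each gene's part as a colour, C5 to C8 left and L5 to L8 right of the dotted line. Members under 1% on average are drawn together in dark grey. The Frizzled sum stays between 30.3 and 33.1 in all 8 libraries, and the part of Tcf7 in the TCF/LEF sum is larger in each irradiated library.

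For 3 of the 5 called members (Fzd5, Wnt9a and Dvl1), and for Fzd1 and Fzd7, the Frizzled genes nearest to the threshold, chosen after their values were seen, the 250 bases before the RefSeq start (build GRCm38.p6) are shown so that their upstream DNA can be read side by side. Fzd2 had no entry in the table, and Tcf7 has 2 listed starts. They are written 5′ to 3′ on the gene's strand. Capitals mark GC boxes (GGGCGG on either strand) and TCF/LEF words (CTTTGAA or CTTTGAT, and also CTTTGTA or CTTTGTT, each on either strand). AP-1 words (TGANTCA) were searched too and none was in these 5 windows.
Fzd5, chr1:64737751-64738000, minus strand: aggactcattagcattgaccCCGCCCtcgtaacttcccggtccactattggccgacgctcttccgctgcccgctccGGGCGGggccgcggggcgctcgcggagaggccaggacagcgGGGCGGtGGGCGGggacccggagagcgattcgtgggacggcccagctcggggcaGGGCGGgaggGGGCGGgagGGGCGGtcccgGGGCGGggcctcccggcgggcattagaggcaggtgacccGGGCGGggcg
Fzd7, chr1:59481897-59482146, plus strand: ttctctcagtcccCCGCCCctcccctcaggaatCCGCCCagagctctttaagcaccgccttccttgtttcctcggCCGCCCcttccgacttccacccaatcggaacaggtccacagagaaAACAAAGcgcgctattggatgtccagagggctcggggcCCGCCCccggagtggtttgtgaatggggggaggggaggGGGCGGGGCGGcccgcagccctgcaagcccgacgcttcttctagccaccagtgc
Fzd1, chr5:4758217-4758466, minus strand: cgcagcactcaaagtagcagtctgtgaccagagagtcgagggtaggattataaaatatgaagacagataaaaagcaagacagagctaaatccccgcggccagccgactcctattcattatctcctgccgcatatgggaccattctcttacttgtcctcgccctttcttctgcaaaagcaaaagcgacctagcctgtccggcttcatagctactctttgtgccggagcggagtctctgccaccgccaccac
Wnt9a, chr11:59306680-59306929, plus strand: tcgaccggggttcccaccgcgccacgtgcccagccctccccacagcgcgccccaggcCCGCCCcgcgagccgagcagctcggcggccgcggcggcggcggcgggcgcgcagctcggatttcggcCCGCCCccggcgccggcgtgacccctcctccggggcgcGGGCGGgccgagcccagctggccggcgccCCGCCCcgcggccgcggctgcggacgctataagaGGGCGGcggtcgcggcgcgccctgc
Dvl1, chr4:155847152-155847401, plus strand: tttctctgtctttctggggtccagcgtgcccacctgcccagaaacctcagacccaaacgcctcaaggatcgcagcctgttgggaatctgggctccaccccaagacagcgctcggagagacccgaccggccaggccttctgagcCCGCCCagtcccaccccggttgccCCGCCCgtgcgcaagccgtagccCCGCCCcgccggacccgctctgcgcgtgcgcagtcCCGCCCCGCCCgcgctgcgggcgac

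The windows of Fzd5, Fzd7, Wnt9a and Dvl1 held 9, 6, 5 and 5 GC boxes, counting overlapping ones, and that of Fzd1 held 0. GC content was 76.4% for Fzd5, 65.2% for Fzd7, 84.4% for Wnt9a, 71.2% for Dvl1 and 51.2% for Fzd1. Fzd7 alone among the 5 had a TCF/LEF word (AACAAAG on the gene's strand). Of all 32841 windows of this length in the RefSeq table, 32.7% held a GC box, 14.8% a TCF/LEF word and 6.75% an AP-1 word. The table matched 37 of the 57 members with 47 windows, of which 66% held a GC box, 12.8% a TCF/LEF word and 6.38% an AP-1 word. Median GC content was 64.4% in these windows and 52.4% in all. With 20 members unmatched, these shares describe the matched genes only, and a comparison of the set with all promoters is void. A match is a run of letters and was not tested as a binding site.

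Co-receptors and alternative receptors did not pass the test in any of 5 tested members. Lrp6, the main co-receptor of the beta-catenin branch, gave 105.7 ± 10 and 106 ± 4.76 CPM, and the 95% interval of its fold ran from 0.923 to 1.09 (edgeR adjusted p = 0.98). Lrp5, the co-receptor whose mutations alter bone mass, gave 32.1 ± 2.17 and 30.3 ± 2.34 CPM (interval 0.854 to 1.04, edgeR adjusted p = 0.478). Lrp4, which anchors sclerostin, was low at 3.22 ± 0.627 and 2.8 ± 0.953 CPM (interval 0.611 to 1.24). Ror2, a receptor of WNT5A-type signals, gave 91.7 ± 7.03 and 92.4 ± 1.73 CPM (interval 0.939 to 1.08, edgeR adjusted p = 0.917). Ryk, a kinase-like Wnt receptor, gave 193.6 ± 3.8 and 183.1 ± 8.68 CPM (interval 0.897 to 0.998, edgeR adjusted p = 0.16). Changes of more than about 1.1-fold thus lay outside the intervals of Lrp6 and Ror2. Ror1 had 0 counts in each library.

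Lgr4, Lgr5, Znrf3 and Rnf43 set how many receptors stay on the surface, the ligases ZNRF3 and RNF43 removing Frizzled proteins and the LGR receptors, with R-spondins, blocking that removal. Lgr4 gave 214 ± 9.18 and 219.2 ± 7.75 CPM (log2 fold change 0.03, edgeR adjusted p = 0.622). Znrf3 gave 13.8 ± 1.73 and 12.3 ± 1.22 CPM (log2 fold change -0.16, edgeR adjusted p = 0.353). Lgr5 had 0 counts in each library, and Rnf43 had 0 counts over the non-irradiated and 12 over the irradiated libraries. Lgr6, a related R-spondin receptor outside the 57 members, was at 52.8, 59.1, 49.8 and 46.5 CPM in C5 to C8 and at 86.9, 72.6, 83.3 and 89.6 CPM in L5 to L8. Every irradiated library lay above every non-irradiated one, and Lgr6 rose 1.6-fold (log2 fold change 0.68, SE 0.076, edgeR adjusted p = 2.15e-05). Of its possible ligand genes, Rspo2 had 111 and 109 counts over the groups, Rspo1 had 0 and 16, and Rspo3 and Rspo4 had 0 counts in each library.

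Of the 11 secreted and membrane inhibitors among the members, 8 were below the filter, and none of the 3 tested passed. Sost and Dkk1, through which osteocytes restrain Wnt signalling in bone, had 0 counts in each library, as did Sfrp1 and Frzb. Dkk2 and Wif1 had 4 counts each, in C7 only. Sfrp2 had 22 counts over the non-irradiated and 25 over the irradiated libraries, and Notum, an enzyme that strips the lipid from Wnt proteins, had 31 and 36. Dkk3, a Dickkopf relative not known to block LRP6 as DKK1 does, was the most abundant of these inhibitor genes. It gave 202.1 ± 10.4 and 203.8 ± 5.04 CPM (95% interval of the fold 0.955 to 1.06, edgeR adjusted p = 0.886). Kremen1, a DKK1 receptor, gave 111.6 ± 2.66 and 104.5 ± 4.39 CPM (log2 fold change -0.09, edgeR adjusted p = 0.126). It passed when library totals alone set the scale (edgeR adjusted p = 0.0488). Sfrp4 gave 2.74 ± 0.392 and 2.65 ± 0.335 CPM (edgeR adjusted p = 0.916).

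In the cytoplasmic relay, Dvl1 rose and 6 tested members did not pass. Dvl1, a Dishevelled protein that couples Frizzled to the destruction complex, was at 83.8, 95.1, 90.5 and 91.4 CPM in C5 to C8 and at 105.5, 99.9, 99.99 and 102 CPM in L5 to L8. The groups did not overlap, and the rise was 1.13-fold (log2 fold change 0.18, SE 0.043, edgeR adjusted p = 0.00868). Dvl3 gave 78.6 ± 6.09 and 79.4 ± 5.34 CPM (edgeR adjusted p = 0.907). Dvl2 was at 59.9 to 64.8 CPM in L5 to L7 and at 83.3 CPM in L8, against 68.7 to 78 CPM in non-irradiated libraries. With L8 the log2 fold change of Dvl2 was -0.10 (edgeR adjusted p = 0.568), and without L8 it was -0.22 (edgeR adjusted p = 0.0152). A single library therefore set whether Dvl2 passed.

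Ctnnb1, the gene of beta-catenin itself, was at 637.6, 633.4, 631.6 and 629.2 CPM in C5 to C8 and at 634.4, 640.1, 638.1 and 631.6 CPM in L5 to L8. The ranges overlapped almost wholly, and the 95% interval of the fold ran from 0.969 to 1.04 (log2 fold change 0.01, edgeR adjusted p = 0.899). For the destruction complex, Apc gave 102.2 ± 6.8 and 112.2 ± 7.25 CPM (log2 fold change 0.13, edgeR adjusted p = 0.0898), and it passed without C6 (edgeR adjusted p = 0.0238). Axin1, its scaffold, gave 64.4 ± 4.06 and 66.6 ± 1.2 CPM (edgeR adjusted p = 0.584). Gsk3b, the kinase that marks beta-catenin for breakdown, gave 151.5 ± 7.88 and 145.5 ± 4.05 CPM (edgeR adjusted p = 0.381).

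Among nuclear factors, Tcf7 showed the largest change of any member past the threshold. Tcf7, which encodes TCF1, a partner of beta-catenin and itself a beta-catenin target in several tissues, was at 19.4, 22.8, 22.8 and 16.9 CPM in C5 to C8. In L5 to L8 it was at 31.6, 30.4, 37.5 and 38.1 CPM. Every irradiated library lay well above every non-irradiated one. Means were 20.5 ± 2.89 and 34.4 ± 3.93 CPM, a 1.68-fold rise. On the log2 scale it was 0.75 with an SE of 0.1 (edgeR adjusted p = 7.27e-05). Under the 16 alternatives the log2 fold change of Tcf7 ran from 0.67 to 0.81 and its adjusted p reached at most 0.000967.

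Tcf7l1, which encodes TCF3, mainly a repressor of beta-catenin targets, gave 57.4 ± 1.39 and 53 ± 2.17 CPM without overlap (log2 fold change -0.12, edgeR adjusted p = 0.121). Tcf7l2, which encodes TCF4, gave 16.3 ± 0.955 and 16.6 ± 1.28 CPM (log2 fold change 0.02, edgeR adjusted p = 0.905). Lef1 had 5 counts in L5 and 0 in the other 7 libraries. Per kb of joined exons, Tcf7l1 exceeded Tcf7 by a factor of 1.63 to 2.3 in non-irradiated libraries, and in irradiated ones the ratio was 0.891 to 1.2. Joined exons are 3.924 kb for Tcf7l1 and 2.625 kb for Tcf7, and the longest transcripts 3.042 and 2.471 kb. With the longest transcript Tcf7l1 stands higher against Tcf7, so a ratio under 1 and the size of the shares below depend on the length used. The part of Tcf7 in the summed TCF/LEF level was 27.7% to 35% in non-irradiated and 42.2% to 49.2% in irradiated libraries. That sum was 24.3 ± 1.04 CPM per kb in non-irradiated and 28.5 ± 1.46 in irradiated cells, without overlap.

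**Figure D4:**
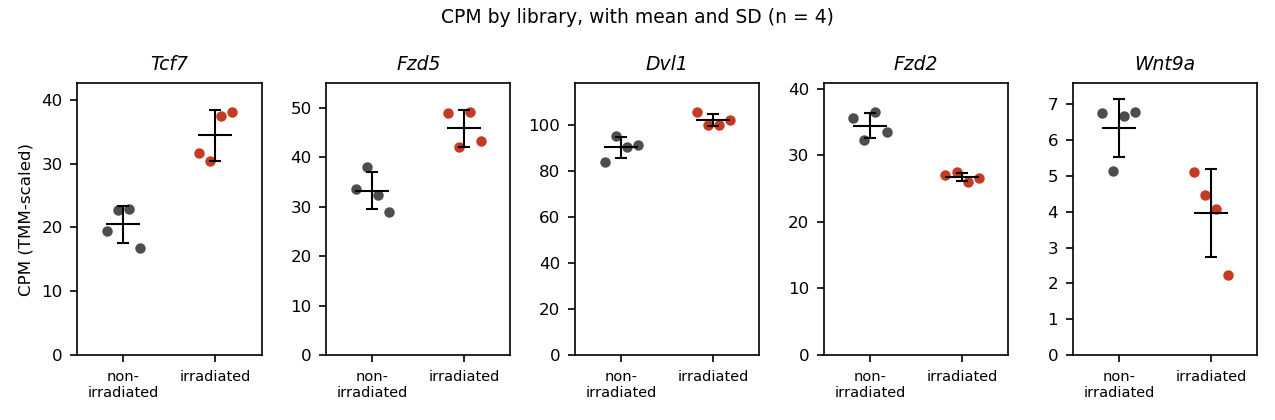
CPM of the 5 members past the threshold in each library (points), with mean and SD over 4 libraries (black). In each panel the 4 irradiated libraries (red) lie on 1 side of the 4 non-irradiated ones (grey), narrowly so for Wnt9a, where L5 at 5.1 CPM is next to C6 at 5.14 CPM.

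Several feedback genes that beta-catenin and TCF/LEF factors switch on in some tissues were below the filter on low counts. Axin2 had counts of 4, 4, 0 and 8 in C5 to C8 and of 12, 0, 0 and 0 in L5 to L8. Nkd1, Nkd2 and Lgr5 had 0 counts in each library, as had Sp5, a target outside the members. Lef1, Rnf43 and Notum were also below the filter, and with the filter of 1 count Axin2 had an edgeR adjusted p = 0.948. Not all such genes were low: Tcf7, a target in several tissues, was tested and rose 1.68-fold. Znrf3, the ligase related to Rnf43, was tested and did not pass (edgeR adjusted p = 0.353). Of 18 other genes listed as beta-catenin targets, 9 were tested. Of these 6 rose and 1 fell, that is 77.8% against 15.0% of all tested genes, with a median log2 fold change of 0.22. Several are also targets of growth factor and other pathways, and the list was written with earlier results of these data known, so its direction is not independent evidence. Gja1 and Cd44 of this list are also osteocyte markers, and Runx2 is an osteoblast marker.

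In that list, Gja1, the connexin that joins osteocytes, rose 1.27-fold (250.1 ± 5.17 to 318.4 ± 9.91 CPM, edgeR adjusted p = 1.84e-07). Ccnd1, which encodes cyclin D1, was at 359.2 to 369.5 CPM in non-irradiated and 422.6 to 453.3 CPM in irradiated libraries and rose 1.22-fold (edgeR adjusted p = 1.29e-06). Runx2, the osteoblast transcription factor, rose 1.18-fold (edgeR adjusted p = 0.005). Jag1, a Notch ligand, fell (log2 fold change -0.34, edgeR adjusted p = 0.0233). The Jag1 call was lost without C5, C7, C8, L7 or L8 (edgeR adjusted p up to 0.078).

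The planar polarity and calcium branch had 28 of 35 listed genes tested, of which 6 rose and 3 fell (32.1% called, against 15.0% of all tested genes), with a median log2 fold change of -0.02. Prickle2, a core planar polarity gene, was at 4.74, 4.47, 3.29 and 4.4 CPM in C5 to C8 and at 2.45, 2.04, 2.52 and 2.81 CPM in L5 to L8. Its groups did not overlap and it fell 1.72-fold (log2 fold change -0.78, edgeR adjusted p = 0.0066). Camk2g, a calcium-dependent kinase, rose 1.23-fold, from 76.8 ± 4.06 to 94.2 ± 3.58 CPM (edgeR adjusted p = 0.000143). Its more abundant relative Camk2d fell, from 230 ± 14.6 to 200.6 ± 4.94 CPM without overlap (edgeR adjusted p = 0.00186). Camk2a did not pass (edgeR adjusted p = 0.947), and Camk2b was below the filter. Nfatc1, a calcium-responsive transcription factor, rose 1.2-fold (edgeR adjusted p = 0.00332). Rock2, a kinase that acts on the actin skeleton, rose 1.16-fold (edgeR adjusted p = 0.000942). Among the called genes of this list, Scrib, Prkca and Plcb3 lost their calls under 7, 4 and 3 of the 16 alternatives. This list and those below were also written with earlier results of these data known, so their shares are not independent evidence.

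Of the other 3 lists, further cytoplasmic regulators of beta-catenin had 20 of 22 genes tested, with 2 higher and 2 lower (20% called, against 15.0% of all tested genes). Amer1, a membrane partner of APC, fell (log2 fold change -0.35, edgeR adjusted p = 0.014), a call lost without L7 (0.0545). Apc2, a relative of APC, fell (log2 fold change -0.27, edgeR adjusted p = 0.0216), a call lost without C5, C6, C7, L5 or L7 (up to 0.0647). Csnk1g3, a casein kinase, and Usp34, a deubiquitinase that acts on axin, rose (log2 fold changes 0.17 and 0.14, edgeR adjusted p = 0.0283 and 0.0335). Csnk1g3 lost its call without C5, C6, C7, L5 or L7 and with library totals alone (up to 0.0863). Usp34 lost it without C5, C7, C8, L5, L6 or L7 and with library totals alone (up to 0.128). Nuclear cofactors had 22 of 23 genes tested, with 1 higher and 0 lower (4.55% called, against 15.0% of all tested genes). Only Ctbp2, a corepressor, rose (log2 fold change 0.20, edgeR adjusted p = 0.0192), a call lost without C8, L5 or L8 (up to 0.0758), and 6 of the 22 had an unadjusted p under 0.05 (27.3%, against 27.4% of all tested genes). Further ligands, receptors and secreted modulators had 10 of 32 genes tested, with 1 higher and 1 lower (20% called, against 15.0% of all tested genes). Besides Lgr6, Igfbp4, a binding protein that can also dampen Wnt signalling, changed. Its means were 626.4 ± 22.7 and 550.2 ± 16.6 CPM, and it fell (log2 fold change -0.19, edgeR adjusted p = 0.000299).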

How the data were processed

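RNA-seq values came from 1 deposited table of 8 library columns. Trimmomatic 0.39 and FastQC 0.11.9 are listed per the submitters' processing notes, as are HISAT2 2.2.1, StringTie 2.1.7, DESeq2 1.32.0 and build GRCm39. Their order, settings and annotation release were not given in the sources used here, nor was the use of strand in counting. Each deposited value is an estimated count for 1 gene, a whole number without normalization, so no rounding was needed. They pile up at 4 (6096 values, against 4006 of 3 and 2428 of 5), so a fragment may add about 4 counts and counting error is larger than the count implies. Columns are numbered 5 to 8 and sample titles 1 to 4, so each column was tied to its group only.

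Identifiers were matched without version to GENCODE M21 symbols (52083 of 55359; features without one held 0.299% to 0.439% of a library). That release, like the RefSeq tables, describes GRCm38 and served for names, exon lengths and upstream sequence. Genes were kept with filterByExpr (minimum count 10), scaled by TMM and fitted with edgeR 4.0.16 (R 4.3.3, robust quasi-likelihood fit, no covariates) over all 8 libraries. P-values were adjusted over all 15164 tested genes at a threshold of 0.05, the SE is the log2 fold change over the root of F, and the 95% interval uses the fit's t quantile. CPM uses TMM-scaled totals. Alternatives used DESeq2 1.42.0, limma 3.58.1, other scalings and filters, counts divided by 4, a block and leaving out each library.

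The members and lists were chosen with earlier results of these data known. Every member is accounted for, those past the threshold by library, and up to 4 called genes of each other list with the largest changes. The relatives of Camk2g were given besides. Tle5 was matched by its RefSeq synonym. Exons of Fzd5 share 1233 bases with Gm38058 on the opposite strand (56 counts in all libraries together), and those of Dvl1 share 36 with Tas1r3 (402 counts). Without strand their reads cannot be told apart. Upstream windows were printed for called members, and for Fzd1 and Fzd7, that have 1 listed start and at most 30 exon bases inside.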

Additional observations from a re-analysis of the deposited data

Results flagged for a closer look

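In 6 of 70 groups of 4 libraries (35 members in 2 groups), 1 library stood apart from the other 3 beyond the 95% critical value of Dixon's ratio, and about 1 in 20 groups does so by chance. Wnt9a was at 5.14 CPM in C6, with the other non-irradiated libraries at 6.68 to 6.78. Wnt11 was at 0.989 CPM in L6, with the others at 0.251 to 0.323. Fzd6 was at 19 CPM in C5, with the others at 13.4 to 14.1. Kremen1 was at 108 CPM in C8, with the others near 113. Znrf3 was at 10.5 CPM in L6, with the others at 12.7 to 13.2. Porcn was at 2.52 CPM in C5, with the others at 1.69 to 1.82. Of these members only Wnt9a passed the test, and C6 was its non-irradiated library nearest to the irradiated ones.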

How the results depend on the processing

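Among members, 3 were higher and 2 lower, and the calls of Tcf7, Fzd5, Dvl1 and Fzd2 held under all 16 alternatives. With library totals alone 4 members were lower, since Fzd1 and Kremen1 passed too. That scaling gave 1050 higher and 1345 lower genes overall (43.8% of calls higher, against 54.9% of 1247 and 1023 with TMM). Leaving out 1 library at a time gave 3 to 5 higher and 1 to 2 lower members. There were 5 higher without C6 and 1 lower without C5, C7, C8 or L7. Other Wnt pathway genes, 16 higher and 7 lower, gave 11 to 18 and 3 to 10, with 4 lower without C5 and 3 without L7. All tested genes gave 976 to 1501 higher and 696 to 1172 lower. The column numbers did not pair libraries (correlation of same-numbered deviations -0.046 to 0.0014, no library closest to its own number). With the number as a replicate block, 3 members were higher and 2 lower, and 1006 and 751 of all genes. Apc2, Csnk1g3 and Scrib no longer passed with the block, and no other called member or listed Wnt gene lost its call. With the longest transcript as length, Wls moved from rank 5 to 2 among tested members and Tcf7l2 from 1.86 to 4.39 CPM per kb; shares within families follow the joined exons. Members under about 3 CPM had fold intervals that span 1.5-fold or more. The parts of depth and of the spread between libraries in this width were not tested. Intervals were as wide for Lrp4, Wnt10a and Wnt9a at 3.2, 4.6 and 6.3 CPM in non-irradiated cells. That of Wnt9a, a called member, ran from 0.466 to 0.841.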
